A study of Mus musculus with 12 samples.

Results

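A set of 10 genes of fibroblast growth factor (FGF) signalling were followed: the ligands Fgf5, Fgf7, Fgf10, Fgf18 and Fgf22, the receptors Fgfr1, Fgfr2 and Fgfr3, and the inhibitors Spry1 and Spry2. They were the 10 genes, of 20659 named genes on the array, whose probes carry an accession that belongs to one of these symbols, and they were read by 15 probes on 33 spots of 43020 that were not controls. The RNA of 12 samples was labelled with Cy5 and set against a pool of all conditions in Cy3 on 2-colour arrays. Every level below is thus a log2 ratio of sample to pool, with 0 where the scaled channels are equal. The sample was in Cy5 on every array, so a distance from the pool and an offset between the dyes cannot be told apart. Each combination of genotype (Eng+/-, heterozygous for endoglin, and wt), day (50 and 90) and treatment (none named, clp, tpa) had 1 array. The labels do not say what the days count or what clp and tpa are, and the wt samples without a named treatment are titled as pools. The labels call the material E14 embryonic stem cells, but the arrays carried the genes of skin: all 7 epidermal genes with a probe and 18 of 20 hair shaft and inner root sheath genes were well above background on 12 of 12 arrays, against 3 of 5 embryonic stem cell genes, with Zfp42 on none and Pou5f1 on 1. The labels give no number of animals, body site or allele beyond Eng+/-, and no strain.

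FGF ligands are secreted proteins that bind receptor tyrosine kinases together with heparan sulphate, and the bound receptor signals through the Ras and MAP kinase cascade. Sprouty proteins are made in answer to this signal and dampen it inside the cell. In the hair follicle, which cycles through growth, regression and rest, Fgf5 is known for ending growth (mice that lack it have long, angora hair), Fgf18 for holding the follicle at rest, and Fgf7 and Fgf10, made by the dermal papilla, for acting on the epithelium as growth begins. Fgf22 is known from the inner root sheath.

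All 15 probes of the 10 genes were well above background in both channels on 12 of 12 arrays and none was saturated, so all of them were tested. In spot intensity before scaling, the Spry2 probe was the only one dimmer in the sample than in the pool throughout. Its median Cy5 spot intensity was 88.5 to 228.5, against 240.0 to 813.5 in Cy3. On the scaled log2 ratio both Fgf18 probes (highest -0.77 and -0.50) and 1 Fgfr1 probe (highest -0.40) were also below 0 on all 12 arrays. Some features of the arrays touch what follows. Each treatment lies on a slide of its own, so that treatment and slide cannot be told apart, while each slide holds the 2 genotypes at the 2 days. In 5 of 6 pairs the Eng+/- array had the lower level of Eng itself, but not in tpa at 50 d (-0.49 against -1.13 in wt). On 3 arrays (Eng+/- with no named treatment at 90 d, and Eng+/- and wt with tpa at 50 d) the median of 20 hair shaft and inner root sheath genes was -5.61, -4.78 and -5.25, against -1.56 to 1.03 on the other 9. In addition, the pool channel of 2 arrays (wt with no named treatment at 50 d and wt clp at 90 d) correlated less with the other arrays (0.974 and 0.973) than the remaining 10 did (0.991 to 0.994).

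The sequences just before the start of 5 of these genes are shown. Of these, Fgf5, Fgf22 and Fgfr3 were highest in clp and Fgf7 was lowest there. Fgf18 passed in no comparison, and its 2 highest levels were on arrays poor in hair transcripts. Spry2, which passed in clp against tpa, is not shown. RefSeq (GRCm38.p6) held promoters for 9 of the 10 genes (Fgfr3 with 2 starts, Fgfr1 with none in the table used), and the 250 bases before the start are given on the strand of the gene. Capitals mark the letters of a GC box or an Ets core on either strand.
Fgf5: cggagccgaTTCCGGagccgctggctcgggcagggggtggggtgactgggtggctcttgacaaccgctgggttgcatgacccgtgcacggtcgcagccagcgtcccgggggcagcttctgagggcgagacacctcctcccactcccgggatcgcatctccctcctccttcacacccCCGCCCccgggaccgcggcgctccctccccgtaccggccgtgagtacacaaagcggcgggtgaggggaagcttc
Fgf18: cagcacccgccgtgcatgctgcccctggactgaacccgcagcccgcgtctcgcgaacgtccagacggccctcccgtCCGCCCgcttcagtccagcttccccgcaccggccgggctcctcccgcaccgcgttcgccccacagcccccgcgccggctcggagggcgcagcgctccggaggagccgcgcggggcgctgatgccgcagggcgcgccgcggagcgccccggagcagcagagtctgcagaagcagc
Fgf7: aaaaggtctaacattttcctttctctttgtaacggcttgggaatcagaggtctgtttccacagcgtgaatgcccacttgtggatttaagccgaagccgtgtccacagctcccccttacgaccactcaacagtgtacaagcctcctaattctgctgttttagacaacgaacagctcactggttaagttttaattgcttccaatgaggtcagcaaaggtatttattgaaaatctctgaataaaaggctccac
Fgf22: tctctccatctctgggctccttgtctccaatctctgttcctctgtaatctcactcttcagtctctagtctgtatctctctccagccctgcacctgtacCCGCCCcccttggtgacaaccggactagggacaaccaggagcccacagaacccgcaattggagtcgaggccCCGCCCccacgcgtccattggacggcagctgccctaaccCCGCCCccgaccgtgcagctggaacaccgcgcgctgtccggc
Fgfr3: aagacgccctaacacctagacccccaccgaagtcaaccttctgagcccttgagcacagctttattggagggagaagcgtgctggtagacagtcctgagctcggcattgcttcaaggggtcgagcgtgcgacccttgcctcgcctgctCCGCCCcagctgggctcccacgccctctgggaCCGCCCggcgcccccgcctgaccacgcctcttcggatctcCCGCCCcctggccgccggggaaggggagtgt
The regions are chr5:98253934-98254183 (Fgf5, + strand), chr11:33147401-33147650 (Fgf18, - strand), chr2:126034408-126034657 (Fgf7, + strand), chr10:79754859-79755108 (Fgf22, + strand) and chr5:33721474-33721723 (Fgfr3, + strand). The TATA box was searched as TATAAA and the GC box as GGGCGG, while the Tcf/Lef core was searched as CTTTGA and the Ets core as CCGGAA, each on both strands. This found 3 GC boxes each before Fgf22 and this start of Fgfr3, 1 before Fgf18, 1 GC box and 1 Ets core before Fgf5, and none of the 4 motifs before Fgf7. Over 32851 promoters of the same length, 32.7% held a GC box, 12% an Ets core, 12.4% a TATA box and 13.8% a Tcf/Lef core. The bases were 70.8% G or C before Fgf5, 77.2% before Fgf18, 62.4% before Fgf22 and 66.8% before Fgfr3, but 43.6% before Fgf7. A match describes letters and is not a binding site, and a window without one says nothing of the factor.

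Among the ligands, Fgf5 spanned the widest range, from -2.05 to 1.79, a 14.3-fold spread between arrays. With clp its level was 1.79 and -0.26 on the Eng+/- arrays and 1.46 and 1.66 on the wt arrays (50 d and 90 d in each case). With no named treatment it was -0.80 and -2.05 in Eng+/- and -0.26 and 1.13 in wt, and with tpa -2.00 and -1.24 in Eng+/- and -1.96 and -0.01 in wt. The clp arrays were high apart from Eng+/- at 90 d, which lay among the tpa and untreated arrays, so the groups overlapped. Fgf7, a keratinocyte growth factor, went the other way. Its level with clp was -0.71 and -0.28 in Eng+/- and -0.22 and -0.23 in wt, with no named treatment 0.69 and 0.24 in Eng+/- and 0.46 and 0.75 in wt, and with tpa 0.10 and 0.04 in Eng+/- and 0.14 and -0.07 in wt. The 3 treatments did not overlap for Fgf7: the 4 clp arrays lay lowest, the 4 tpa arrays between, and the 4 untreated arrays highest.

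The 2 highest Fgf22 levels were those of clp at 50 d, at 1.19 in Eng+/- and 0.87 in wt. At 90 d with clp it was 0.08 and 0.36, within the range of the remaining 8 arrays, which ran from -0.19 to 0.38. On Cy5 alone (log2 intensity, without the pool) the wt clp array of 90 d was as high as these, at 9.86 beside 9.85 and 9.93, and the other 9 arrays lay at 9.04 or lower. Fgf18 had a log2 ratio below 0 on all 12 arrays. Its level with clp was -2.00 and -1.29 in Eng+/- and -2.75 and -2.50 in wt, with no named treatment -2.79 and -0.77 in Eng+/- and -2.19 and -2.82 in wt, and with tpa -1.64 and -1.84 in Eng+/- and -1.21 and -2.37 in wt. The treatments overlapped throughout, and the 2 highest arrays, Eng+/- untreated at 90 d and wt tpa at 50 d, are 2 of the 3 that were poor in hair transcripts. The other Fgf18 probe ran from -2.66 to -0.50 and gave like differences (0.02 against 0.01 for clp against no named treatment, and 0.39 against 0.38 for tpa). Fgf10, the partner of Fgf7 at the same receptor, moved least among the ligands, from -0.36 through a median of -0.05 to 0.19, with the 3 treatments overlapping.

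**Figure D1:**
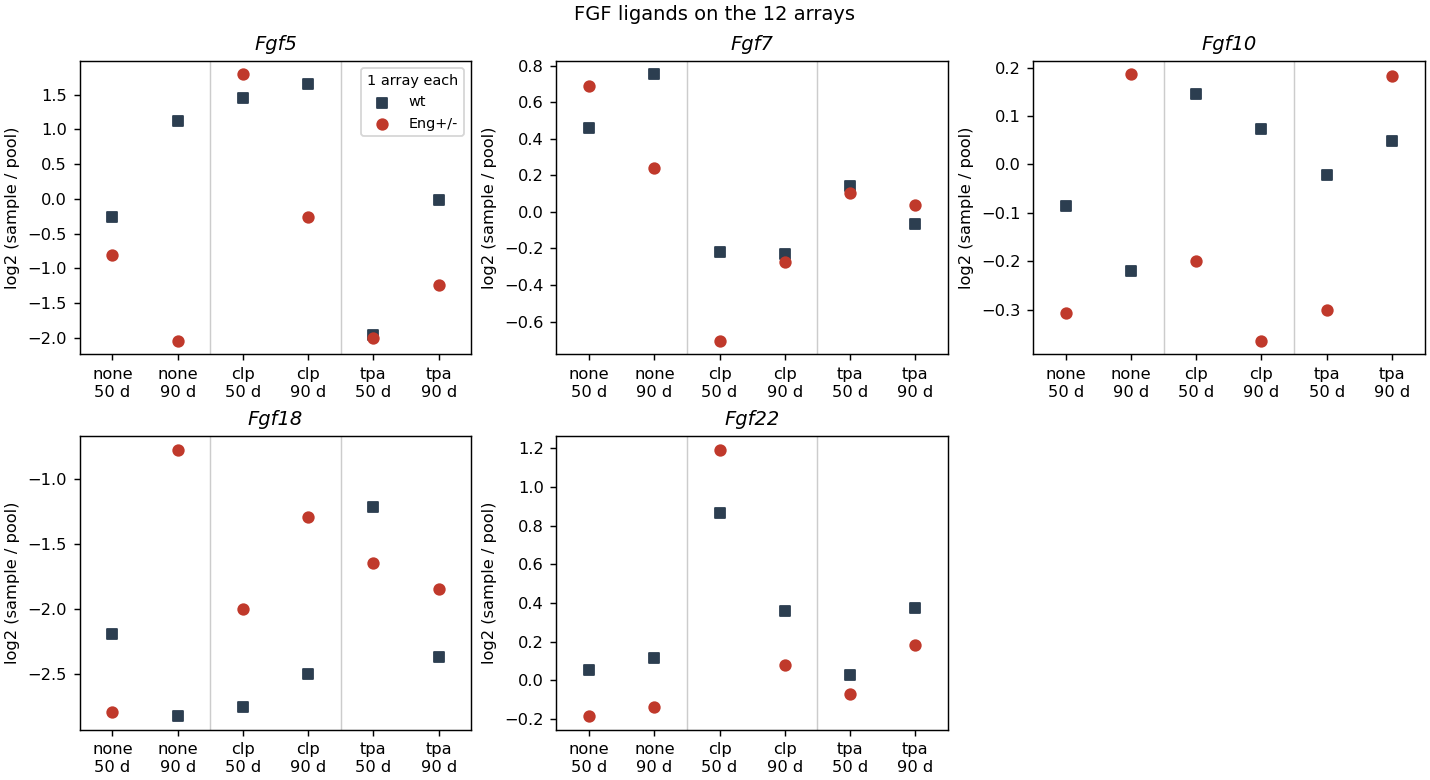
Level of the 5 ligands on each of the 12 arrays, as log2 of sample over pool (vertical axes differ between panels), by treatment and day on the horizontal axis, with circles for Eng+/- and squares for wt, 1 array each. The Fgf7 points of clp lie below all others, the 2 clp points of Fgf22 at 50 d lie above all others, and the Fgf5 points reach from -2.05 to 1.79.

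Of the receptors, Fgfr3, which is known as a brake on growth in cartilage and as a gene mutated in benign skin growths, was highest on the clp arrays. Its level there was 0.22 and 0.22 in Eng+/- and 0.67 and 0.76 in wt. With no named treatment it was -0.24 and -0.46 in Eng+/- and -0.30 and -0.25 in wt, and with tpa -0.34 and -0.30 in Eng+/- and -0.35 and -0.20 in wt. The 4 clp arrays lay above the other 8 without overlap, while tpa and untreated arrays covered the same range. Fgfr1, a receptor of the dermis, was lowest with clp, at -0.73 and 0.22 in Eng+/- and -1.18 and -0.55 in wt, against 0.17 and 0.03 in Eng+/- and 0.02 and 0.32 in wt untreated, and -0.31 to 0.13 with tpa. The clp array of Eng+/- at 90 d lay within the untreated range, so these groups overlapped. These levels are those of the brightest Fgfr1 probe, which differed by -0.49 in clp against tpa. The other 2 probes differed there by 0.10 and 0.15, and by -0.11 and -0.17 in clp against untreated. Fgfr2, whose epithelial form binds Fgf7 and Fgf10, ran from -0.42 through a median of -0.21 to 0.25, with the 4 tpa arrays between -0.42 and -0.27 and the untreated ones between -0.32 and 0.25.

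The log2 ratios of the 2 Sprouty genes lay on either side of 0, which cannot be told apart from an offset between the dyes. Spry1 was above 0 on all 12 arrays, from 0.07 through a median of 0.28 to 0.69, with every treatment overlapping. Spry2 was below 0 on all 12. Its level was -3.07 and -2.84 in Eng+/- and -3.40 and -2.59 in wt with clp, -2.48 and -4.18 in Eng+/- and -1.06 and -3.05 in wt with no named treatment, and -3.72 and -4.35 in Eng+/- and -3.69 and -4.48 in wt with tpa. The 4 tpa arrays lay below the 4 clp arrays without overlap, and the untreated arrays reached over both. These arrays were spread by day as well, since both untreated arrays of 50 d lay above both of 90 d. These orders rest on the pool channel: on Cy5 alone Spry2 ran only from 7.27 to 7.84 over the 12 arrays, and the treatments and the untreated days overlapped.

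**Figure D2:**
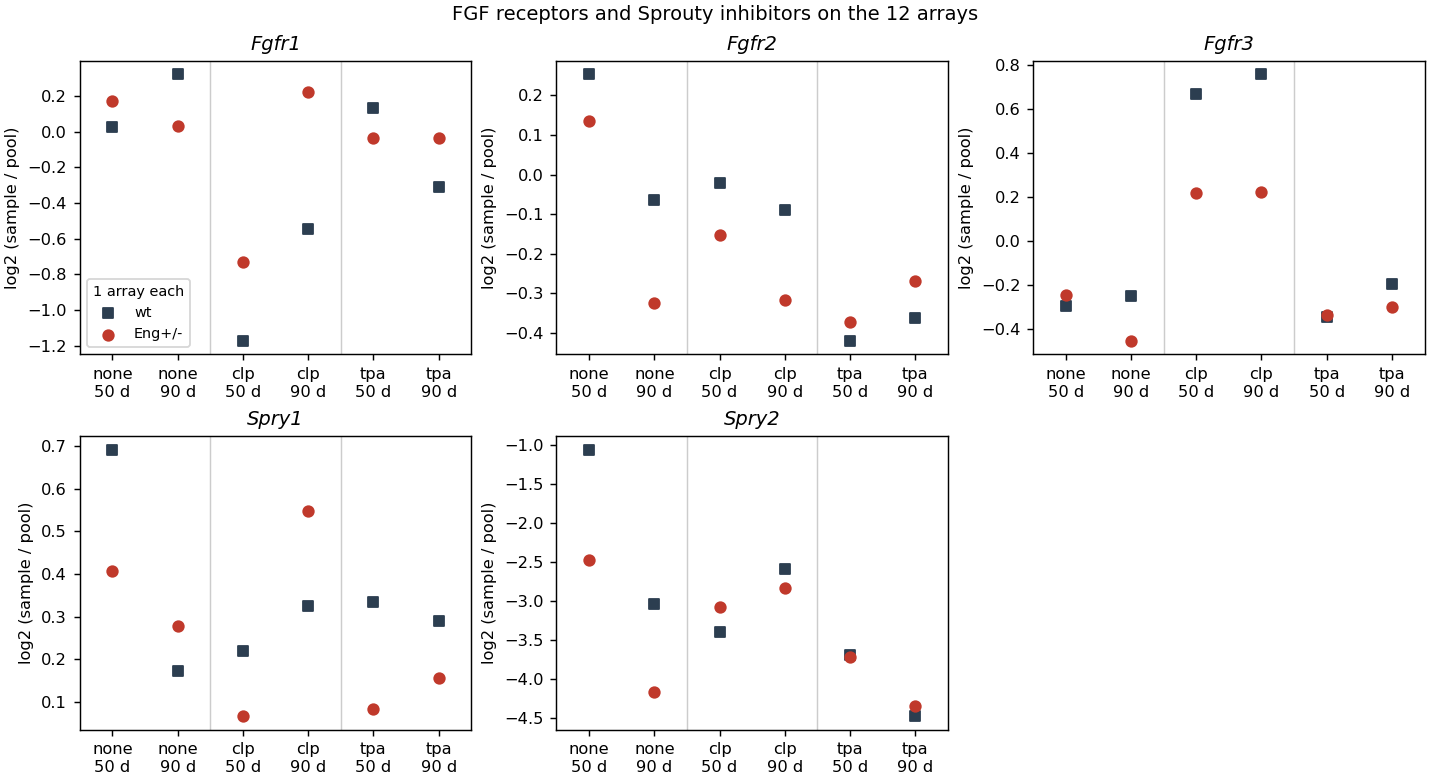
Level of the 3 receptors and the 2 Sprouty genes on each of the 12 arrays, as log2 of sample over pool (vertical axes differ between panels), by treatment and day, with circles for Eng+/- and squares for wt, 1 array each. The clp points of Fgfr3 lie above the other 8 arrays, and the tpa points of Spry2 lie between -4.48 and -3.69, below all clp points.

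The first comparison set the 4 clp arrays against the 4 untreated ones, within genotype and day. Fgf7 fell by 0.90 ± 0.16 (log2 difference ± SE of the fit, 1.86-fold, adjusted p = 0.0220, lower in 4 of 4 pairs). Fgf22 rose by 0.66 ± 0.12 (1.58-fold, adjusted p = 0.0220, higher in 4 of 4 pairs), with pair differences of 1.38 and 0.82 at 50 d and 0.22 and 0.24 at 90 d. On Cy5 alone the Fgf22 difference was 1.03, with processed signals 1.06 and with median centring 1.23, each past the threshold. Fgfr3 rose by 0.78 ± 0.16 (1.72-fold, adjusted p = 0.0266, higher in 4 of 4 pairs). These are adjusted p-values of limma, with Benjamini-Hochberg adjustment over all 25084 features (genes, or accessions without a symbol) and a threshold of 0.05. The spread they use is how the difference between the genotypes varies over the 6 conditions of treatment and day. With 1 array per combination, it is not a spread between arrays of the same combination. So 3 of the 10 genes were called, beside 7.77% of all features, and 2 of 10 did not overlap between the groups, beside 9.27% of all features. The median difference of the 10 was -0.05 (all features 0.01) and their median absolute difference 0.47 (all features 0.19). In bulk tissue, fewer cells of a type and less RNA per cell cannot be told apart.

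The remaining 7 genes did not pass. Fgf5 was 1.66 ± 0.49 higher in clp than untreated (adjusted p = 0.0703, higher in 4 of 4 pairs), and Fgfr1 differed by -0.69 ± 0.20 (adjusted p = 0.0635, lower in 3 of 4). Without the 3 arrays poor in hair transcripts, which leave out an untreated array, Fgfr1 differed by -0.87 and passed (adjusted p = 0.0209) and Fgf5 by 1.07 (adjusted p = 0.105). Fgfr1 also passed without the untreated Eng+/- array of 90 d alone (-0.84, adjusted p = 0.0203) or without the Eng+/- clp array of 90 d (-0.87, adjusted p = 0.0474), and Fgf5 without the untreated wt array of 90 d (2.28, adjusted p = 0.0176), on Cy5 alone (2.02, adjusted p = 0.0481) and with median centring (2.48, adjusted p = 1.16e-05). The brightest probe stands for a gene here, and for the receptors the probes disagreed: the other Fgfr3 probe differed by 0.00 and the other 2 Fgfr1 probes by -0.11 and -0.17. Spry1, Spry2, Fgf10, Fgf18 and Fgfr2 differed by -0.29 to 0.02, with adjusted p-values of 0.485 or more.

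The tpa arrays do not enter the differences of this comparison, only the spread and the adjustment. While the differences kept their sign, leaving out single arrays ended each call. That of Fgf7 was lost without Eng+/- untreated 50 d, wt clp 90 d, Eng+/- clp 50 d or wt clp 50 d (differences of -1.0 to -0.79, adjusted p = 0.0605 to 0.0827). The same 4 arrays each ended the Fgf22 call (0.53 to 0.80, adjusted p = 0.0533 to 0.0910). That of Fgfr3 was lost without any of these 4, wt untreated 50 d, or either tpa array of 90 d (0.68 to 0.86, adjusted p = 0.0534 to 0.109), and with the mean over its probes (0.39, adjusted p = 0.0965). Without the 2 arrays whose pool channel stood apart, Fgf7 differed by -0.96, Fgf22 by 0.65 and Fgfr3 by 0.63, and none passed (adjusted p = 0.0847, 0.0922 and 0.120). Without the 3 arrays poor in hair transcripts all 3 calls were kept, at -1.01 for Fgf7, 0.62 for Fgf22 and 0.79 for Fgfr3. With arrays centred on their medians instead of fitted by loess, which puts the median of all features at 0.24 in this comparison, Fgf7 differed by -0.53 (adjusted p = 0.505), Fgfr3 by 1.29 (adjusted p = 0.144) and Fgfr1 by 0.02.

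Markers of other cell types moved with these genes, and their part in the results was not tested. Of 7 fibroblast genes tested, all 7 differed downwards in clp against untreated and 2 passed, and their median level was -1.17 to -0.41 on the clp arrays and -0.01 to 0.24 on the untreated ones. Of 10 dermal papilla genes, the compartment known for Fgf7 and Fgf10, 8 differed upwards and 3 passed, with median levels of -0.57 to 0.25 in clp and -0.89 to -0.19 untreated. All 20 hair shaft and inner root sheath genes differed upwards and 2 passed, with median levels of -1.14 to 1.03 in clp and -5.61 to 0.66 untreated. All 7 immune cell genes differed downwards and 6 passed, with median levels of -1.74 to -0.69 in clp and 0.46 to 0.79 untreated. Of 7 epidermal genes 6 differed downwards and 2 passed, with median levels of -0.56 to 0.04 in clp and 0.18 to 0.81 untreated, without overlap. All 5 adipocyte genes differed downwards and 1 passed, with median levels of 0.15 to 0.39 in clp and 0.33 to 0.83 untreated. All 7 hair matrix and all 6 melanocyte genes differed upwards, and 2 of each passed. All 6 cell cycle genes differed upwards and 2 passed, with median levels of 0.13 to 1.00 in clp and -0.77 to 0.24 untreated.

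The clp arrays were next set against the tpa arrays. Fgf5 was 2.47 ± 0.49 higher in clp (5.53-fold, adjusted p = 0.0213, higher in 4 of 4 pairs), with pair differences of 3.80 and 3.42 at 50 d and 0.99 and 1.67 at 90 d in Eng+/- and wt. Fgfr3 was 0.76 ± 0.16 higher (1.70-fold, adjusted p = 0.0226, 4 of 4 pairs), and its other probe was 0.44 higher, also in 4 of 4 pairs. Spry2 was 1.09 ± 0.28 higher (2.12-fold, adjusted p = 0.0473, 4 of 4 pairs), with pair differences from 0.29 to 1.89. Fgf22 was 0.50 ± 0.12 higher (1.41-fold, adjusted p = 0.0400), but in only 2 of 4 pairs, by 1.26 and 0.84 at 50 d against -0.10 and -0.02 at 90 d. On Cy5 alone it was 1.17 higher (adjusted p = 0.0166) and in 4 of 4 pairs, with 0.10 and 0.82 at 90 d, and with median centring 0.97 higher. Thus 4 of 10 genes were called, all higher in clp, beside 8.16% of all features, and 3 of 10 (Fgf7, Fgfr3 and Spry2) did not overlap, beside 16.2%. The median difference of the 10 was 0.14 (all features 0.05).

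These comparisons share the clp arrays, so their values are given side by side and no overlap of calls is counted as a result: for Fgfr3, 0.78 against untreated and 0.76 against tpa, for Fgf22, 0.66 and 0.50, for Fgf5, 1.66 and 2.47, for Fgf7, -0.90 and -0.41, and for Spry2, -0.29 and 1.09. Fgf7 against tpa did not pass (adjusted p = 0.160, lower in 4 of 4 pairs). The Spry2 difference depended on the reference channel: on Cy5 alone it was 0.11 (adjusted p = 0.674), and with the authors' processed signals 0.69 (adjusted p = 0.120). Leaving out any 1 of the 8 clp and tpa arrays ended the Spry2 call (0.87 to 1.30, adjusted p = 0.0558 to 0.212). The Fgf5 call was lost without wt clp 90 d, Eng+/- clp 50 d, either tpa array of 90 d or wt tpa 50 d (2.04 to 2.51, adjusted p = 0.0677 to 0.119). The Fgf22 call was lost without any of these 8 arrays except wt clp 50 d (0.36 to 0.54, adjusted p = 0.0687 to 0.172), and that of Fgfr3 without any except Eng+/- clp 90 d and Eng+/- tpa 50 d (0.66 to 0.84, adjusted p = 0.0601 to 0.137). Without the 2 arrays whose pool channel stood apart none of the 4 passed, with differences of 2.25 for Fgf5, 0.44 for Fgf22, 0.68 for Fgfr3 and 1.07 for Spry2. A model without the interaction of treatment and day kept the Fgfr3 call only, and Fgfr3 in turn missed the threshold on Cy5 alone (0.59, adjusted p = 0.0632) and with median centring (0.59, adjusted p = 0.659). Both tpa arrays of 50 d are among the 3 poor in hair transcripts, and without these 3 this comparison could not be fitted within genotype and day. All 20 hair genes were higher in clp than in tpa and 6 passed, with median levels of -1.14 to 1.03 in clp and -5.25 to 0.14 in tpa. All 7 hair matrix genes (4 passing) and all 6 melanocyte genes (4 passing) were also higher, while all 7 immune cell genes were lower, 5 of them passing. Of 7 fibroblast genes 5 were lower and 3 passed, with median levels of -1.17 to -0.41 in clp and -0.20 to 0.41 in tpa, and 1 epidermal and 1 endothelial gene passed as lower. The part of these cells in the differences was not tested.

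In tpa against untreated, none of the 10 genes passed, beside 0.132% of all features, 33 in number, while 3 of 10 and 6519 features had an unadjusted p under 0.05. Spry2 differed by -1.37 ± 0.28 (adjusted p = 0.0677, lower in 4 of 4 pairs), Fgf7 by -0.48 ± 0.16 (adjusted p = 0.126, lower in 4 of 4) and Fgfr2 by -0.36 ± 0.12 (adjusted p = 0.129, lower in 3 of 4). The groups did not overlap for Fgf7, 1 of the 10 genes, beside 11.2% of all features. Without the untreated Eng+/- array of 90 d, Fgf5, Fgf7 and Spry2 passed, beside 19.8% of all features. Without that of 50 d Spry2 passed (-1.68, adjusted p = 0.0326), beside 1.25% of all features. On Cy5 alone Spry2 differed by -0.08 and with processed signals by -0.68. With median centring Spry2 passed (-1.01, adjusted p = 0.0222), while Fgf7 and Fgfr2 turned to 0.15 and 0.10.

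**Figure D3:**
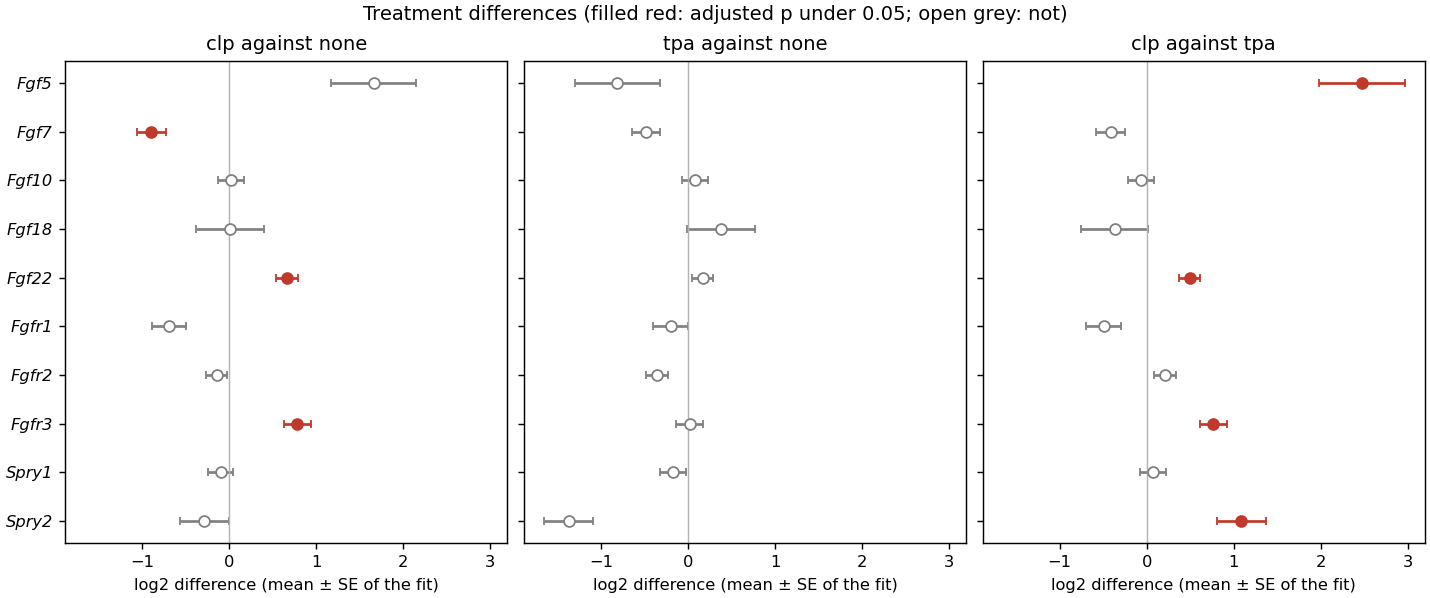
Log2 difference between treatments for each gene with the SE of the fit (12 arrays), for clp against no named treatment, tpa against no named treatment and clp against tpa. Filled red points have an adjusted p under 0.05 and open grey points do not: 3 points pass in the left panel, none in the middle one and 4 in the right one.

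Between the genotypes, none of the 10 genes passed, beside 0% of all features (smallest adjusted p of any feature 0.313). At an unadjusted p under 0.05 there were 1 of the 10 genes, Fgf5, and 3336 of 25084 features. The direction follows the labels, which Eng went against in the tpa pair of 50 d. Fgf5 was 1.10 ± 0.40 lower on the arrays labelled Eng+/- (difference -1.10, adjusted p = 0.345, lower in 5 of 6 pairs). Its pair differences were -3.17 (untreated, 90 d), -1.91 (clp, 90 d), -1.23 (tpa, 90 d), -0.54 (untreated, 50 d), -0.04 (tpa, 50 d) and 0.34 (clp, 50 d). The 3 pairs of 90 d thus differed most. The largest of them sets an array poor in hair transcripts against one that is not. Without the 3 such arrays the difference was -0.84 (adjusted p = 0.425), and without the tpa pair of 50 d -1.31 (adjusted p = 0.349). In all 3 pairs of 90 d the median hair gene level was lower on the Eng+/- array. Untreated it was -5.61 against 0.66 in wt, with clp -1.14 against 0.75 and with tpa -1.56 against 0.14. At 50 d it was -0.99 against -0.02, 1.00 against 1.03 and -4.78 against -5.25 in the same order. All 20 hair genes differed downwards between the genotypes (median difference -1.64) and none passed. The part of hair content in the Fgf5 difference was not tested.

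Fgf18 was 0.59 ± 0.32 higher on the arrays labelled Eng+/- (adjusted p = 0.443, higher in 4 of 6 pairs), from -0.60 in the untreated pair of 50 d to 2.05 in that of 90 d. In each of the 3 pairs of 90 d Fgf18 was higher and Fgf5 lower on the Eng+/- array. Spry2 differed by -0.40 ± 0.23 (adjusted p = 0.472), with -1.42 and -1.13 in the 2 untreated pairs and -0.25 to 0.32 in the other 4. On Cy5 alone its difference was -0.09, and the untreated pairs differed by 0.06 at 50 d and -0.48 at 90 d. Fgfr1 differed by 0.19 by its brightest probe, but by -0.29 and -0.03 by its other 2 probes. By the brightest probe of each, the remaining 7 genes, Fgfr1 included, differed by -0.21 to 0.19. Among them, Fgf22 differed by -0.12 on the ratio but by -0.57 on Cy5 alone, where it was higher in 0 of 6 pairs. Fgf10 differed by -0.12 and -0.37 in the same order, higher in 2 of 6 pairs on Cy5 alone. Of all features, 0 passed between the genotypes on Cy5 alone. Over the 10 genes the median difference was -0.12, with 8 of 10 negative (all features -0.01).

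**Figure D4:**
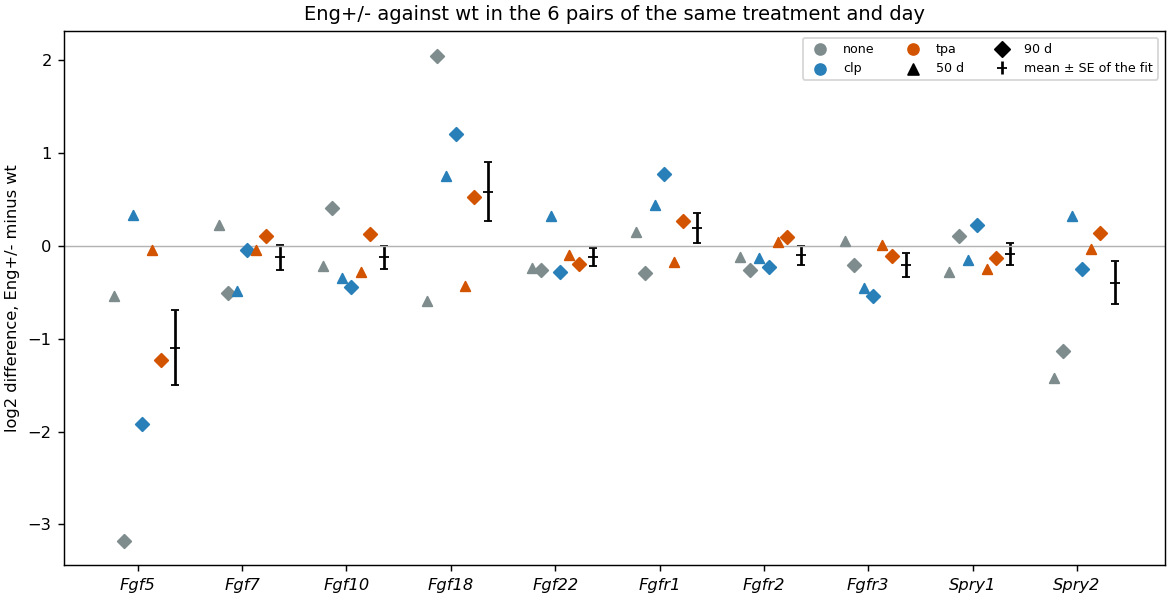
Log2 difference of Eng+/- minus wt for each gene in the 6 pairs of the same treatment and day (colour for treatment, triangles for 50 d, diamonds for 90 d), with the mean and SE of the fit to the right of each gene in black. The Fgf5 points reach from -3.17 to 0.34 and the Fgf18 points from -0.60 to 2.05, while Fgf22 and Fgfr2 stay within 0.33 of 0.

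Days 90 and 50 were compared within each treatment, over 2 pairs of the same genotype. None of the 10 genes passed with no named treatment (0% of all features, 1377 at an unadjusted p under 0.05), with clp (0% of all features, 3165 unadjusted) or with tpa (0% of all features, 1445 unadjusted), and 1, 2 and 0 of the 10 had an unadjusted p under 0.05. Spry2 was lower at 90 d in both untreated pairs, by -1.70 in Eng+/- and -1.99 in wt (-1.84 ± 0.40, adjusted p = 0.836), but on Cy5 alone by -0.35 in Eng+/- and 0.19 in wt, a mean of -0.08. Fgf22 was lower at 90 d in both clp pairs, by -1.12 in Eng+/- and -0.51 in wt (-0.81 ± 0.17, adjusted p = 0.289). On Cy5 alone it differed by -1.48 in Eng+/- but only by -0.07 in wt. Fgfr1 was higher at 90 d in both clp pairs, by 0.96 and 0.63 (0.79 ± 0.28, adjusted p = 0.335). Its other 2 probes differed by 0.07 and 0.11 there, each higher in 1 of 2 pairs. With tpa, Fgf5 was higher at 90 d in both pairs, by 0.76 and 1.95 (1.35 ± 0.70, adjusted p = 0.926), where both arrays of 50 d are poor in hair transcripts. Whether the day difference varied with treatment was tested directly, and none of the 10 genes passed (0% of all features, 3420 unadjusted). The nearest were Fgf22 (adjusted p of the F test 0.236), with -0.81 in clp and 0.30 in tpa, and Spry2 (0.263), with -1.84 untreated and 0.52 in clp (on Cy5 alone -0.08 and 0.34).

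Across arrays, Fgf5 followed the level of the hair genes. On the 3 arrays poor in hair transcripts Fgf5 lay between -2.05 and -1.96, below the -1.24 to 1.79 of the other 9, and among those 9 its correlation with the median of the hair genes was 0.931 (Spearman 0.90). Fgfr3 by its brightest probe also lay below the other 9 there, at -0.46 to -0.34 against -0.30 to 0.76. Of all features, 8.48% did not overlap between these 3 arrays and the other 9. The other Fgfr3 probe did overlap, at -0.48 on Eng+/- tpa 50 d against -0.66 on Eng+/- tpa 90 d. So did the brightest probe on Cy5 alone, at 13.39 on wt tpa 50 d against 12.93 on wt untreated 50 d. Fgf18 ran the opposite way, at -1.64 to -0.77 against -2.82 to -1.29, with overlap, and a correlation of -0.508 over the 9. For the other 7 genes that correlation lay between -0.650 (Fgfr1) and 0.681 (Fgf22). The 3 arrays were told apart by the hair genes and belong to different groups of the design, so this is a description, and all these values share arrays and scaling.

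**Figure D5:**
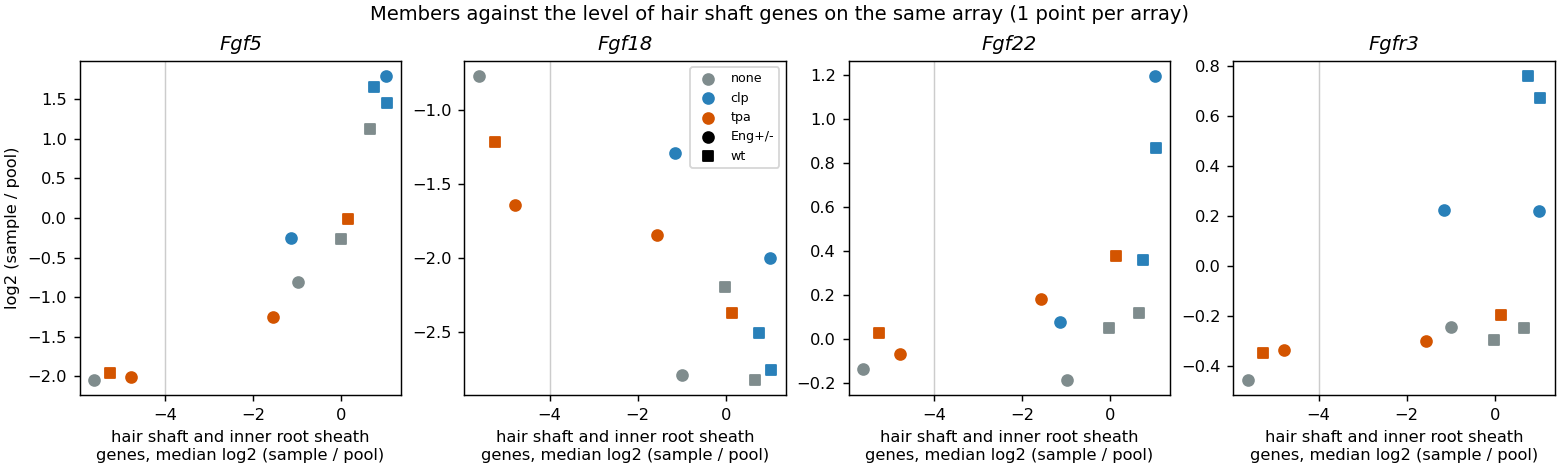
Level of Fgf5, Fgf18, Fgf22 and Fgfr3 (log2 of sample over pool, vertical axes differ) against the median of 20 hair shaft and inner root sheath genes on the same array (horizontal axis, same scale), 1 point per array, with colour for treatment and circles for Eng+/- and squares for wt. The 3 points left of the grey line at -4 are the arrays poor in hair transcripts, where Fgf5 is lowest, at -2.05 to -1.96.

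Among the 10 genes themselves, the strongest correlation over the 12 arrays was that of Fgf22 with Fgfr1 (-0.847, and -0.853 over the 9 arrays), followed by Fgfr2 with Spry2 (0.818 and 0.814) and Fgf5 with Fgfr3 (0.774 and 0.707). Fgf5 and Fgf18 correlated at -0.678 over the 12 arrays and at -0.335 over the 9. The Spry2 levels rest on the pool channel, since on Cy5 alone Spry2 ran only from 7.27 to 7.84. The Fgfr1 and Fgfr3 levels are those of the brightest probe of each gene, and for both genes the probes disagreed between treatments. Correlations on Cy5 alone or with the other probes were not computed. These values are descriptions over arrays that share the pool and the slides.

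The genes outside this set whose levels ran most like Fgf5 over the 12 arrays were Gabrp, a GABA receptor subunit (r = 0.989), Rhpn2 (0.986) and Car6, a secreted carbonic anhydrase (0.982), and 1.97% of all features correlated with Fgf5 above 0.9. For Fgf7 they were Sema4a (0.967), Add1 (0.951) and Akt2 (0.950), for Fgf10 Rab10 (0.922), Nsf (0.922) and Pafah2 (0.919), for Fgf18 Echdc3 (0.969), Septin4 (0.958) and Mat2b (0.956), and for Fgf22 Lypd6 (0.961), Vtcn1 (0.961) and Rsph6a (0.960). For the receptors they were Synpo2 (0.967), Dusp3 (0.960) and Rtn1 (0.960) for Fgfr1, Fkbp4 (0.971), Map3k9 (0.947) and Epn3 (0.944) for Fgfr2, and Naa35 (0.964), Tbx1 (0.953) and Itpa (0.950) for Fgfr3. Spry2, whose levels rest on the pool channel, ran most like Hic2 (0.952), Spsb1 (0.947) and Dsg1c (0.947). No feature correlated with Spry1 above 0.9, and the nearest was Krt9, a keratin of footpad skin (0.870). Without the 2 arrays farthest from a gene's median the leading correlation became 0.987 for Fgf5, 0.881 for Fgf22 and 0.739 for Spry1.

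The rest of the pathway was read through 4 lists. Of 17 other FGF ligands 11 could be tested, and none passed in clp against untreated, tpa against untreated, clp against tpa or between the genotypes. The smallest adjusted p-values among them were 0.0680 (Fgf4, clp against tpa, difference -0.29) and 0.0732 (Fgf8, tpa against untreated, -0.58). Of 14 other receptors and binding partners 13 were tested, and 1 passed in clp against untreated and 2 in clp against tpa, beside 7.77% and 8.16% of all features. Flrt1, a membrane protein that binds FGF receptors, was higher in clp than untreated by 1.23 ± 0.23 (adjusted p = 0.0233, 4 of 4 pairs). In clp against tpa its relative Flrt3 was higher by 1.22 ± 0.28 (adjusted p = 0.0331, 4 of 4 pairs) and Klb, a co-receptor for endocrine FGFs, lower (-0.73 ± 0.16, adjusted p = 0.0277, 4 of 4 pairs). Fgfr4 differed by -0.72 ± 0.22 in clp against untreated (adjusted p = 0.0740, lower in 3 of 4 pairs).

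All 18 transducers between receptor and MAP kinase were tested and none passed in these 4 comparisons (smallest adjusted p 0.0688). Of 17 other feedback inhibitors and genes induced by the pathway 15 were tested. In clp against untreated 2 of the 15 passed, beside 7.77% of all features, both higher: Egr1, an immediate early transcription factor (1.27 ± 0.23, adjusted p = 0.0213, 4 of 4 pairs), and Spred2, an inhibitor related to Sprouty (0.92 ± 0.22, adjusted p = 0.0402, 3 of 4 pairs). In clp against tpa 1 of the 15 passed, beside 8.16% of all features: Etv1, an Ets transcription factor, which was lower (-0.69 ± 0.16, adjusted p = 0.0319, 4 of 4 pairs). Etv4, Dusp6, Etv5 and Spry4, further genes induced by the pathway, did not pass between treatments or genotypes: in clp against tpa Etv4 differed by 0.73 (adjusted p = 0.0507), Dusp6 by 0.79 (adjusted p = 0.181), Etv5 by 0.29 (adjusted p = 0.463) and Spry4 by 0.10 (adjusted p = 0.645). Leaving out single clp arrays ended each of these 6 calls: wt clp 90 d, Eng+/- clp 50 d and wt clp 50 d did so for Egr1, Flrt1, Flrt3, Klb, Spred2 and Etv1. Others that did so were Eng+/- untreated 50 d for Flrt1, all 4 tpa arrays for Flrt3, the tpa arrays except Eng+/- 50 d and Eng+/- clp 90 d for Klb, the remaining clp and tpa arrays for Etv1, and all others except the 2 untreated of 90 d for Spred2. Where a call was lost, the differences lay between 0.98 and 1.31 for Egr1, 1.08 and 1.37 for Flrt1, 1.01 and 1.32 for Flrt3, -0.80 and -0.65 for Klb, -0.73 and -0.66 for Etv1, and 0.82 and 1.03 for Spred2. With the mean over its probes Flrt1 differed by 0.55 (adjusted p = 0.0601) and Etv1 by -0.31 (adjusted p = 0.120). None of the 6 passed without the 2 arrays whose pool channel stood apart (adjusted p = 0.0813 to 0.117). An additive model kept Flrt1 only (adjusted p = 0.0412), and median centring ended the calls of Flrt3 (1.03, adjusted p = 0.325) and Etv1 (-0.98, adjusted p = 0.187), as Cy5 alone did that of Flrt3 (1.05, adjusted p = 0.0501). With processed signals Spred2 differed by 1.66 and Klb by -1.38, both past the threshold.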

How the data were processed

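RNA of 12 samples was hybridised to Agilent mouse arrays, each with the sample in Cy5 and a pool in Cy3, in the same orientation per the labels. The series text instead describes wt RNA in Cy3, dye swaps and an Axon scanner, and the values follow the labels of the single arrays. The deposited scanner files hold spot and background intensity of both channels and, per the file headers, the authors' processed intensity (background-subtracted, detrended, dye-normalized). The authors' value table gives a log10 ratio, which was equal to that of the scanner files (largest difference 0). Feature Extraction is version 10.0 in the submitters' processing notes and 10.7.3.1 in the file headers. The headers name mm9 for the probes, so no coordinates are given but those of the RefSeq promoters (GRCm38.p6).

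Median intensities were processed in R 4.3.3 with limma 3.58.1: normexp with an offset of 50, then loess within arrays with controls at weight 0. Flagged spots were dropped (975 probes left out), spots of a probe averaged, and a probe needed Cy5 well above background on 2 or more of 12 arrays (30497 probes). Symbols came from accessions through the RefSeq table (27234 of 39429 probes), and the brightest probe stood for a gene (25084 features, 17166 with a symbol). The model had a term for genotype and 6 for the conditions of treatment and day, over all arrays (eBayes with trend, 5 residual and 4.16 prior degrees of freedom), with two-sided p-values adjusted by Benjamini-Hochberg over all features. The tests were also run on simulated data with independent noise and planted changes. These data held no slide or dye effect, so they say nothing of telling treatment from slide. The number of arrays limits the precision.

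The 10 genes, the pathway lists and the marker lists were chosen with earlier results of these data known. All 10 genes were described. Pathway genes were named if they passed a comparison (at most 5 per list), with Fgfr4, Spry4, Dusp6, Etv4 and Etv5 always; Fgf4 and Fgf8 were named after their values were seen. Genes most like each of the 10 were the 3 with the highest Pearson correlation over 12 arrays. Motifs were chosen for the promoters by hand. Alternatives were other scalings, filters, probe rules and models, and leaving out arrays.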

Additional observations from a re-analysis of the deposited data

How the results depend on the processing

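With 1 array per group, calls were lost when single arrays were left out. Only the 3 calls in clp against no named treatment and the 4 in clp against tpa could be lost. Each was refitted under 22 or 21 alternatives, in the same order. Most differences counted next had no call to lose. Of 1490 differences of the 10 genes under alternatives, 1415 stayed on their side of the threshold, 63 lost a call, 12 gained one and 0 called differences changed sign, while 86 uncalled ones did. In clp against no named treatment the 3 calls became 0 to 4 when 1 array was left out, and 0 without the 2 arrays whose pool channel stood apart. In clp against tpa the 4 calls became 2 with the authors' processed signals, 2 on Cy5 alone, 2 without a trend in the variance, 1 in an additive model, 0 without those 2 arrays, and 0 to 4 when 1 array was left out. In tpa against no named treatment the 0 calls became 1 with median centring and 0 to 3 when 1 array was left out. Median centring also gave 1 call for genotype (Fgf5, -1.33) and 1 for day by treatment (Spry2). The causes were not tested, beyond there being fewer arrays. Over all features, clp against no named treatment gave 1948 calls, but 4086 with processed signals, 6150 on Cy5 alone, 733 in an additive model, 8 without the 2 arrays with a pool channel apart, and 3 to 4506 when 1 array was left out. Without the 3 arrays poor in hair transcripts it gave 3601. For clp against tpa, 2047 calls became 501 in an additive model, 331 without the 2 arrays with a pool channel apart, and 203 to 2969 when 1 array was left out. For tpa against no named treatment, 33 calls became 1037 with median centring, 457 on Cy5 alone, 10 without the 2 arrays with a pool channel apart, 4 without a variance trend, 4 with both channels above background on all arrays, 2 in an additive model, 0 with processed signals, and 0 to 4966 when 1 array was left out. Median centring gave 222 calls for genotype, 245 for day in tpa and 313 for day by treatment, all from 0. With median centring 88.6% of the calls in clp and 83.6% of those in tpa against no named treatment were higher. The alternatives without the 2 pool arrays, the 3 arrays poor in hair transcripts and the tpa pair of 50 d were chosen after seeing the data. The tpa comparisons gave no value without the 3 arrays poor in hair transcripts.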
